A study of Mus musculus with 20 samples.

Results

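The m6A readers followed here are 9 rows of the deposited count table of 21780 genes, namely Ythdf1, Ythdf2, Ythdf3, Ythdc1 and Ythdc2, which encode the YTH-domain proteins, Fmr1 with its paralogs Fxr1 and Fxr2, and Prrc2a. The rows were found by matching the Ensembl identifiers of the table to these symbols in the GENCODE M21 annotation. All 9 passed the filter of 10 counts in total and were among the 15522 genes tested. Liver RNA came from 20 male C57BL/6 mice that were fed a high-fat diet (HFD) from 8 weeks of age, with 5 mice in each of 4 groups. At 10 weeks of age each mouse received a single gavage. HFD control mice received corn oil, HFD + Aroclor mice 20 mg/kg of Aroclor 1260 (a commercial polychlorinated biphenyl mixture that is mostly non-dioxin-like), HFD + PCB 126 mice 20 µg/kg of a dioxin-like congener, and HFD + Aroclor + PCB 126 mice both. According to the methods, livers were taken 10 weeks after the gavage, when the mice had been on the diet for 12 weeks. The labels give 12 weeks of treatment. Each mouse is 1 library, every group ate the HFD, and no group on a control diet was analysed here.

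N6-methyladenosine (m6A) is the most abundant internal mark of messenger RNA. It is laid down by a methyltransferase complex, removed by demethylases and bound by reader proteins. The YTH domain holds the methylated base directly. YTHDF1, YTHDF2 and YTHDF3 are cytoplasmic readers linked to translation and decay, YTHDC1 is a nuclear reader linked to splicing and export, and YTHDC2 is a helicase best known from meiosis. FMRP, the product of Fmr1 that is missing in fragile X syndrome, binds RNA through KH domains and represses translation, and FXR1 and FXR2 are its autosomal relatives. PRRC2A was described as a reader that stabilizes methylated transcripts.

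Promoters of 7 of the 9 genes were in the RefSeq table for GRCm38.p6, with none for Ythdf3 or Ythdc2. PCB 126 is a ligand of the aryl hydrocarbon receptor, so the 250 bases before each start were searched on both strands for the core letters of its response element, GCGTG or its reverse complement CACGC. At least 1 core was found for Ythdf2, Ythdc1, Fmr1, Fxr1, Fxr2 and Prrc2a, that is for 6 of 7, and for 28.157% of all 32851 windows. The windows of the 7 genes held 62.0 to 80.0% GC, against a median of 52.4% over all windows, and the core itself contains CG. The promoter of Fmr1, whose transcript differed most from its paralogs, that of Prrc2a, which fell, and that of Ythdf1, the reader with the smallest difference and no core, are shown with the core in capitals, 5′ to 3′ on the strand of the gene.
Fmr1, chrX:68678291-68678540, plus strand: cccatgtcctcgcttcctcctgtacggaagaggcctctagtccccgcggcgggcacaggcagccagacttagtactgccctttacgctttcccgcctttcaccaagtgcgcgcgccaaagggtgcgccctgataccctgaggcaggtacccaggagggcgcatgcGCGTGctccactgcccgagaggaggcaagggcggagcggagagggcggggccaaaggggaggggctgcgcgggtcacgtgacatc
Prrc2a, chr17:35164878-35165127, minus strand: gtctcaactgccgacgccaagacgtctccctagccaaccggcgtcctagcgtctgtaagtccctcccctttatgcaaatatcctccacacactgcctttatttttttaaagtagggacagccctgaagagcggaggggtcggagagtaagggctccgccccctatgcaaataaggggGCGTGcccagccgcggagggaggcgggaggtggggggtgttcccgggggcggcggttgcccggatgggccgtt
Ythdf1, chr2:180920937-180921186, minus strand: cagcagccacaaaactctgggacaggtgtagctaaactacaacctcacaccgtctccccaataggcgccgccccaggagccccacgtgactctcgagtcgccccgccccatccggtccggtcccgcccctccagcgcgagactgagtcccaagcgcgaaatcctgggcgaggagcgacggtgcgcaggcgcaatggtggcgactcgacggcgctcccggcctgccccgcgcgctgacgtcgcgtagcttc
Fmr1 has 1 core, Prrc2a 1 and Ythdf1 0. These promoters were picked with the differences of their genes known. Of those not shown, Fxr1 has 2 cores and Ythdf2 has 1, and neither reader was called in the combined exposure described below. Ythdc1 and Fxr2, with 1 core each, were called there. With PCB 126 alone edgeR called 0 readers. A match of letters is a description and not evidence of binding.

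The libraries held 21836506 to 36854887 counts. Cyp1a2, a classic target of the aryl hydrocarbon receptor, was higher in both groups given PCB 126, with log2 fold changes (log2FC) of 2.04 (adjusted p = 0.000294) and 1.00 (adjusted p = 0.00325), whereas Cyp1a1 was higher with PCB 126 alone (log2FC 6.93, adjusted p = 0.0095) and had a log2FC of 1.06 with adjusted p = 0.502 in the combined exposure. The other gene of this exposure check, Cyp2b10, averaged 3.544 ± 2.842 CPM (counts scaled by TMM-normalized library size, SD, n = 5) in HFD control. It averaged 13.97 ± 10.72 CPM with Aroclor, 5.376 ± 3.898 with PCB 126 and 11.72 ± 8.979 with both, and was not called in any exposure. With Aroclor 0 of the 3 check genes were called. The summed level of 5 hepatocyte markers, most of it from Alb, ran from 67510 to 97900 CPM over the 20 livers. The libraries differed in how counts followed base composition. The GC slope of a library, the change in log2 CPM relative to the mean of each gene for every 10 percentage points of exonic GC, averaged 0.264 ± 0.188 (SD, n = 5) over the control livers, 0.00929 ± 0.093 after Aroclor, 0.12 ± 0.215 after PCB 126 and −0.393 ± 0.212 after both. All 5 slopes of the combined exposure were below all 5 of HFD control, and HFD control replicates 1 and 2 had the steepest control slopes, 0.504 and 0.378. Library indices also followed the groups, so effects of that order and of the exposure cannot be told apart.

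Per kilobase of exon, Fxr1, Ythdf1 and Fxr2 were the most abundant readers in HFD control liver, at 10.86 ± 2.127 (SD, n = 5), 10.24 ± 1.73 and 9.986 ± 0.5122 CPM per kb. Ythdf3 followed at 7.892 ± 1.909 and Prrc2a at 7.493 ± 0.6869 CPM per kb. Adjacent ranks among these 5 had overlapping ranges, while every Prrc2a value lay below every value of Fxr1, Ythdf1 and Fxr2. Ythdf2, at 5.189 ± 0.9209 CPM per kb, lay below every Prrc2a value. Ythdc1 at 2.5 ± 0.4331 lay below every Ythdf2 value, and Fmr1 at 1.046 ± 0.3608 lay below every Ythdc1 value. Ythdc2 was the scarcest at 0.4425 ± 0.2063 CPM per kb, its range overlapping that of Fmr1. These levels put Fxr1 at percentile 82.57 and Ythdc2 at percentile 32.08 of 15516 tested genes. In the combined exposure the order began with Ythdf3 at 13.21 ± 1.093, then Fxr1 at 12.62 ± 1.623 and Ythdf1 at 10.47 ± 0.6411 CPM per kb, and Prrc2a had moved below Ythdf2, 4.278 ± 1.206 against 6.049 ± 0.4665, with overlapping ranges. Fmr1 (2.271 ± 0.3033) and Ythdc2 (0.9609 ± 0.1242) remained the 2 scarcest in all 4 groups.

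**Figure D1:**
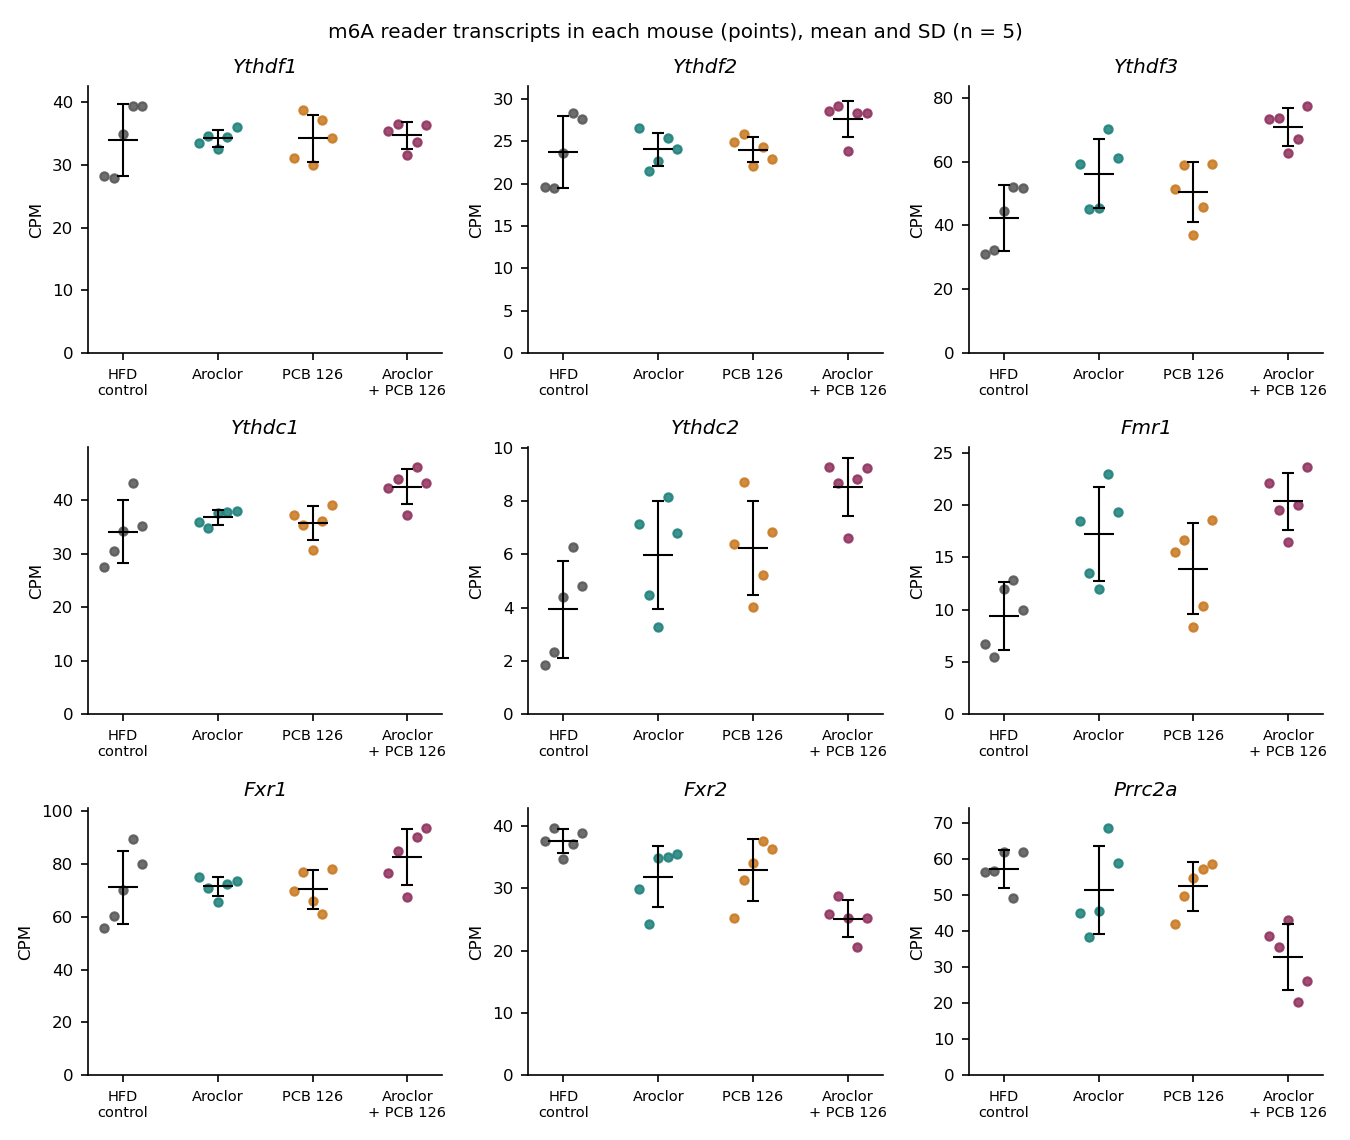
CPM of each m6A reader in each mouse by exposure group, with points for mice and black bars for the mean and SD of 5 mice. Ythdf3, Ythdc2 and Fmr1 of the combined exposure lie above all HFD control mice, Fxr2 and Prrc2a lie below them, and every exposed mouse lies within the control range of Ythdf1.

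With the combined exposure, 6 of the 9 readers differed from HFD control by edgeR's quasi-likelihood test. Ythdf3, Ythdc1, Ythdc2 and Fmr1 rose, and Fxr2 and Prrc2a fell. In the same comparison 32.8% of all tested genes were called, 15.8% higher and 17% lower, and the 4 higher and 2 lower of 9 are read against that share. The median log2FC of the 9 readers was 0.22, against −0.001 over all tested genes. CPM values did not overlap between the 5 combined and the 5 control mice for 5 readers (3 higher, 2 lower), against 18.8% of all genes, 10.6% higher and 8.14% lower.

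The 4 readers that rose had exons of low GC content and the 2 that fell had exons of high GC content. Exonic GC was 38.59% for Fmr1, 39.93% for Ythdc1, 40.22% for Ythdc2 and 40.24% for Ythdf3, all at or below percentile 4.151 of the tested genes, and it was 55.52% for Fxr2 and 59.89% for Prrc2a, at percentiles 79.25 and 96.02. The remaining readers, Fxr1 (41.15%), Ythdf2 (47.81%) and Ythdf1 (50.71%), were not called. After the GC trend of each library was removed, neither any of the 4 rises nor either of the 2 falls passed the threshold. There were 2 other calls, Ythdc1 with a log2FC of −0.25 ± 0.07 (SE, adjusted p = 0.0369) and Fxr1 with −0.29 ± 0.08 (adjusted p = 0.0222), and 9.1% of all genes were called (3.76% higher, 5.33% lower). Because the slopes moved with the exposure, the part of base composition and that of the exposure cannot be told apart here.

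**Figure D2:**
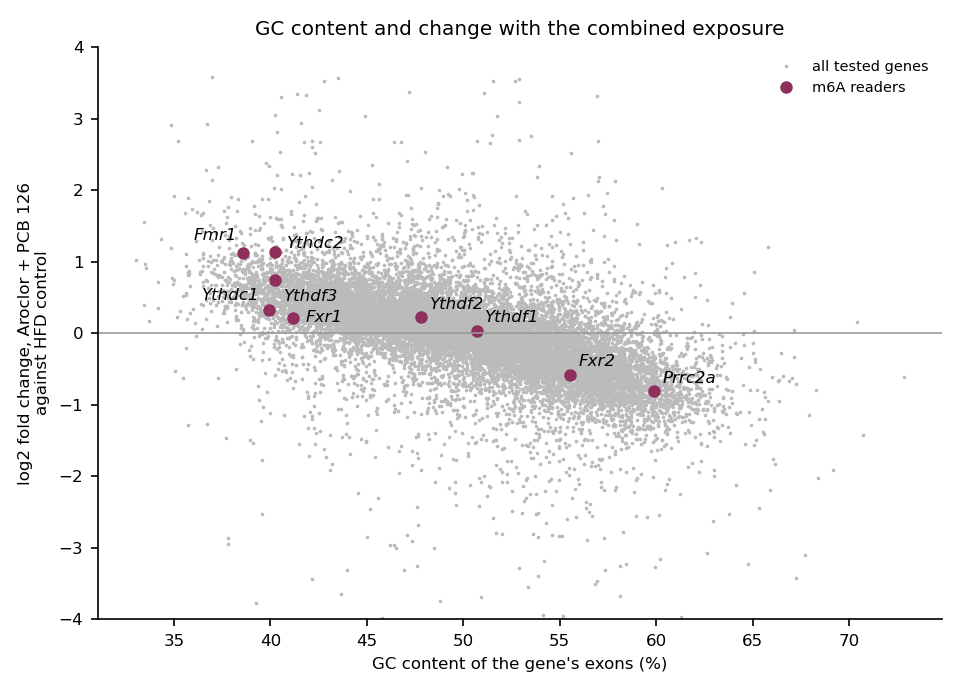
Log2FC of the combined exposure against HFD control (y axis) by the GC content of the gene's exons in percent (x axis), with grey points for all tested genes and purple points for the 9 readers; 34 genes lie outside the axis limits. Fmr1, Ythdc2 and Ythdf3 lie high at about 40% GC, whereas Fxr2 and Prrc2a lie low at 55.52 and 59.89% GC.

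Among the cytoplasmic YTHDF readers, Ythdf3 (chr3:16183212-16217037) changed and its 2 paralogs did not pass the test. Ythdf3 was at 31.1, 32.2, 44.4, 52.1 and 51.9 CPM in the HFD control mice and at 73.4, 73.6, 62.7, 67.2 and 77.5 CPM in the combined exposure. Every combined value was above every control value, and the lowest control values were those of replicates 1 and 2. Its log2FC was 0.75 ± 0.16 (SE, adjusted p = 0.00248). HFD + Aroclor mice had 59.1, 45.2, 45.4, 70.1 and 61.2 CPM and HFD + PCB 126 mice 51.4, 58.9, 36.9, 45.6 and 59.3 CPM, both overlapping the control mice (log2FC 0.41 ± 0.16, adjusted p = 0.230, and 0.25 ± 0.16, adjusted p = 0.483). With the GC trend removed the combined log2FC was 0.20 ± 0.10 (adjusted p = 0.236).

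Ythdf1 (chr2:180904377-180920949), whose protein is linked to translation of methylated transcripts, was at 28.2, 27.8, 34.9, 39.4 and 39.4 CPM in the control mice and at 35.5, 36.6, 31.6, 33.6 and 36.4 CPM in the combined exposure. The control mice spanned the whole range of the exposed mice (log2FC 0.03 ± 0.10, adjusted p = 0.841). Ythdf2 (chr4:132184912-132212303), whose protein recruits a deadenylase to methylated transcripts, was at 19.6, 19.5, 23.6, 28.3 and 27.6 CPM in the control mice and at 28.6, 29.2, 23.9, 28.3 and 28.3 CPM in the combined exposure. Of the 5 combined mice 4 lay close to or above the highest control mouse, and the difference did not pass (log2FC 0.22 ± 0.11, adjusted p = 0.116). Over the single exposures, Ythdf1 stayed between 30.1 and 38.7 CPM and Ythdf2 between 21.5 and 26.5 CPM.

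Both YTHDC readers rose in the combined exposure. Nuclear Ythdc1 (chr5:86804221-86836659) was at 27.6, 30.5, 34.2, 43.2 and 35.2 CPM in the control mice and at 42.2, 43.9, 37.3, 46.3 and 43.2 CPM in the combined exposure. The highest control mouse reached the level of the exposed mice, and the groups overlapped (log2FC 0.32 ± 0.10, adjusted p = 0.0206). Without HFD control replicate 1, HFD control replicate 2 or combined replicate 4 the call was lost (adjusted p = 0.0658, 0.074 and 0.101), and GC correction turned the sign, as given above. Ythdc2 (chr18:44827746-44889724) was scarce, with 70 to 143 counts per control library and 189 to 264 per combined library. Its CPM was 1.83, 2.34, 4.39, 6.27 and 4.82 in HFD control and 9.29, 8.69, 6.61, 8.83 and 9.23 in the combined exposure, without overlap (log2FC 1.14 ± 0.29, adjusted p = 0.00618). In HFD + Aroclor it was at 7.15, 4.46, 3.26, 8.14 and 6.80 CPM and in HFD + PCB 126 at 6.38, 8.73, 4.01, 5.23 and 6.82 CPM, overlapping the control mice (log2FC 0.62 ± 0.29, adjusted p = 0.282, and 0.68 ± 0.29, adjusted p = 0.289). With the GC trend removed, the combined log2FC of Ythdc2 was 0.61 ± 0.23 (adjusted p = 0.0981). With HFD control replicates 1 and 2 left out together, the calls of Ythdc1 (log2FC 0.17, adjusted p = 0.231) and Ythdc2 (log2FC 0.72, adjusted p = 0.0597) were lost, and Ythdf3, Fmr1, Fxr2 and Prrc2a were still called.

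The Fmr1 family split in direction. Fmr1 (chrX:68678541-68717963) was at 6.69, 5.42, 11.9, 12.9 and 9.98 CPM in the control mice and at 22.1, 19.6, 16.5, 19.996 and 23.7 CPM in the combined exposure. All 5 combined mice were above all 5 control mice (log2FC 1.13 ± 0.24, adjusted p = 0.00228). HFD + Aroclor mice had 18.5, 13.5, 11.9, 22.9 and 19.4 CPM, of which 4 were above every control mouse (log2FC 0.89 ± 0.24, unadjusted p = 0.00146, adjusted p = 0.184 by edgeR and 0.0481 by DESeq2). HFD + PCB 126 mice had 15.5, 16.7, 8.34, 10.4 and 18.6 CPM, 3 of them above every control mouse (log2FC 0.58 ± 0.24, adjusted p = 0.283). After GC correction the log2FC of Fmr1 was 0.55 ± 0.17 with Aroclor, 0.36 ± 0.17 with PCB 126 and 0.49 ± 0.17 with both, none of which passed (adjusted p = 0.259, 0.320 and 0.0688).

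Fxr1 (chr3:34019943-34070322) was at 55.8, 60.1, 70.3, 89.6 and 80.1 CPM in the control mice and at 76.6, 85.1, 67.6, 90.3 and 93.8 CPM in the combined exposure. The groups overlapped over most of their range (log2FC 0.22 ± 0.12, adjusted p = 0.175). Exons of Fxr1 overlap those of Dnajc19 on the opposite strand, and whether strand was used in counting is not stated, so its counts may include or lose reads there. Fxr2 (chr11:69632990-69653297) was at 37.5, 39.7, 34.7, 37.1 and 39.0 CPM in the control mice and at 25.8, 28.7, 25.3, 20.5 and 25.2 CPM in the combined exposure. Every combined mouse was below every control mouse (log2FC −0.58 ± 0.12, adjusted p = 0.00176). In the single exposures Fxr2 ran from 24.2 to 35.5 CPM with Aroclor and from 25.2 to 37.7 CPM with PCB 126, overlapping the control mice (log2FC −0.24 ± 0.12, adjusted p = 0.302, and −0.19 ± 0.12, adjusted p = 0.468).

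Prrc2a (chr17:35149076-35164897) fell most. It was at 56.4, 56.6, 61.9, 49.2 and 61.9 CPM in the control mice and at 38.4, 35.4, 42.9, 20.3 and 26.2 CPM in the combined exposure. The 2 groups did not overlap, and combined replicates 4 and 5, the lowest, had the most negative GC slopes of all libraries, −0.676 and −0.516. The log2FC was −0.81 ± 0.18 (adjusted p = 0.00239). Removing the GC trend left −0.15 ± 0.12 (adjusted p = 0.498) for Prrc2a and −0.19 ± 0.10 (adjusted p = 0.271) for Fxr2. Prrc2a ran from 38.4 to 68.6 CPM with Aroclor and from 41.8 to 58.4 CPM with PCB 126 (log2FC −0.16 ± 0.17, adjusted p = 0.636, and −0.13 ± 0.17, adjusted p = 0.780).

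**Figure D3:**
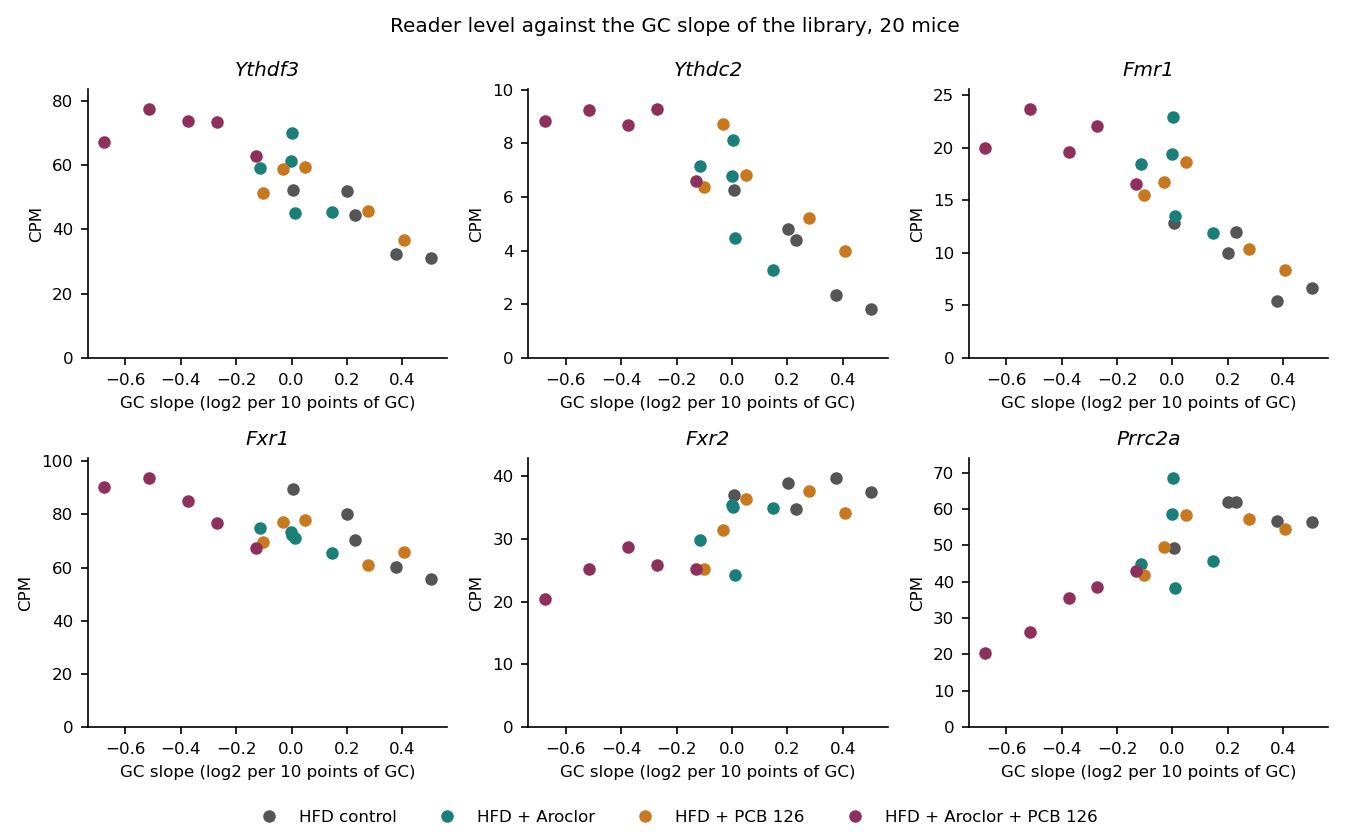
CPM of 6 readers (y axis) against the GC slope of each library (x axis, log2 units per 10 percentage points of GC), 1 point a mouse, coloured by exposure group. HFD control libraries sit to the right, at 0.00598 to 0.504, combined libraries to the left, at −0.676 to −0.13, and the single exposures at −0.114 to 0.408, overlapping the control libraries but none of the combined. The 2 control libraries with the steepest slopes have the lowest Ythdf3, Ythdc2 and Fmr1 levels of their group.

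Neither single exposure changed a reader by edgeR. With Aroclor, 0 of 9 passed (0.0% of all genes called). Of the 9, 3 had an unadjusted p under 0.05 (Ythdf3, Ythdc2 and Fmr1), against 2677 of 15522 genes. DESeq2 called 1 reader, Fmr1, and 135 genes in all. With PCB 126, 0 of 9 passed (0.116% of all genes). An unadjusted p under 0.05 was found for 2 of them (Ythdc2 and Fmr1), against 2280 of 15522 genes. DESeq2 called 0 readers and 320 genes in all. No reader was free of overlap with the control mice in either exposure, against 2.94% and 2.14% of all genes. Ythdf3, Ythdc1, Ythdc2 and Fmr1 had positive log2FC and Fxr2 and Prrc2a negative log2FC in each of the 3 exposures, which share the HFD control mice; after GC correction Ythdc1 was at −0.17 with Aroclor and −0.087 with PCB 126, and Prrc2a at 0.055 with Aroclor. For Ythdc1 the values were 0.11 ± 0.10 with Aroclor (adjusted p = 0.565) and 0.07 ± 0.10 with PCB 126 (adjusted p = 0.804).

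**Figure D4:**
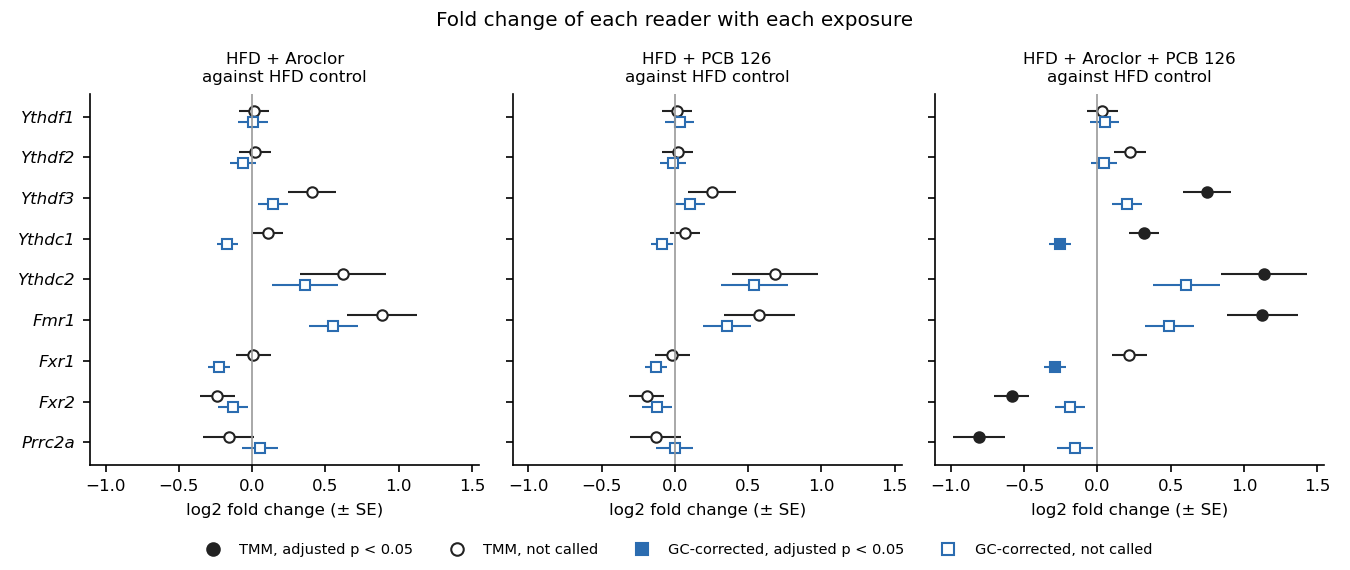
Log2FC with its SE (x axis) of each reader (y axis) for each exposure against HFD control, before (black circles) and after (blue squares) GC correction, filled where the adjusted p was under 0.05. Filled black circles stand for 6 readers of the combined exposure and for none of the single exposures, and after correction only Ythdc1 and Fxr1 are filled, both below 0.

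When the combined exposure was set against PCB 126 alone, which asks what Aroclor adds, 3 of 9 readers passed (16.7% of all genes, 5.64% higher and 11% lower). Ythdf3 was higher (log2FC 0.49 ± 0.16, adjusted p = 0.0441), and Fxr2 (−0.39 ± 0.12, adjusted p = 0.0327) and Prrc2a (−0.68 ± 0.18, adjusted p = 0.0187) were lower. Ythdf3 was called in 3, Fxr2 in 5 and Prrc2a in 7 of the 10 fits that each left out 1 mouse. None was called without PCB 126 replicate 3, PCB 126 replicate 4 or combined replicate 5, 1 was called without combined replicate 4, and 0 were called after GC correction. Against Aroclor alone, 0 of 9 passed (0.412% of all genes), with 2 at an unadjusted p under 0.05, against 3639 of 15522 genes. There DESeq2 called Fxr2 and Prrc2a, and 1343 genes in all. The smallest adjusted p by edgeR was that of Prrc2a (log2FC −0.65 ± 0.18, adjusted p = 0.0636). The interaction, which asks whether the combined log2FC departs from adding up those of Aroclor and PCB 126, gave 0 of 9 by edgeR (0.0% of all genes). At an unadjusted p under 0.05 there was 1, Prrc2a (−0.52 ± 0.25, adjusted p = 0.416), against 1846 of 15522 genes. DESeq2 called 0 readers and 1 gene in all.

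Paralogs were then compared within each mouse as the log2 ratio of their CPM (0.5 added to each). With 9 pairs and 3 exposures there were 27 exact permutation tests over all splits of 5 mice against 5. The pairs share genes and the control mice, and no share of other gene pairs was computed to read their counts against. In the combined exposure all 9 ratios shifted without overlap, each at the smallest p the design allows (two-sided exact permutation p = 0.00794, adjusted p = 0.0195). With Aroclor 4 ratios shifted and with PCB 126 none passed.

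Fxr1 relative to Fmr1 fell in both exposures that contained Aroclor. The Fxr1/Fmr1 ratio was 8.35, 11.1, 5.89, 6.97 and 8.03 in the control mice, 4.06, 5.26, 5.49, 3.16 and 3.79 with Aroclor, 4.50, 4.62, 7.91, 5.88 and 4.19 with PCB 126 and 3.47, 4.36, 4.09, 4.52 and 3.96 with both. No Aroclor or combined mouse reached the lowest control mouse, whereas PCB 126 replicate 3 did. The log2 ratio differed from control by −0.85 with Aroclor (adjusted exact permutation p = 0.0195), by −0.56 with PCB 126 (0.0571) and by −0.91 with both (0.0195). The GC contents of this pair differ by 2.56 points, and after GC correction the differences were −0.77 with Aroclor and −0.79 with both (adjusted exact permutation p = 0.0357 each). These ratios carry the uncertainty of the Fxr1 counts given above.

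Ythdc2 relative to Ythdc1 rose in the combined exposure. The Ythdc2/Ythdc1 ratio was 0.0664, 0.0767, 0.128, 0.145 and 0.137 in HFD control and 0.220, 0.198, 0.177, 0.191 and 0.214 with both, so that the scarcer paralog came nearer to the more abundant in all 5 mice. The log2 difference was 0.80 (adjusted exact permutation p = 0.0195). The exons of this pair are 0.287 points of GC apart, and the difference after GC correction was 0.87 (adjusted exact permutation p = 0.0357). With Aroclor it was 0.47 (0.205) and with PCB 126 0.60 (0.0571), all from permutation.

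Pairs further apart in GC content shifted as well. Ythdf3 to Ythdf1, 10.5 points apart, went from 1.10, 1.16, 1.27, 1.32 and 1.31 in HFD control to 2.07, 2.01, 1.99, 2.00 and 2.13 with both, a log2 difference of 0.72. Fxr2 to Fmr1, 16.9 points apart, went from 5.61, 7.33, 2.91, 2.88 and 3.90 to 1.17, 1.47, 1.53, 1.02 and 1.07, a log2 difference of −1.72. After GC correction the Ythdf3/Ythdf1 difference was 0.15 (adjusted exact permutation p = 0.0824), the Fxr2/Fxr1 difference turned from −0.81 to 0.10, and the Fxr2/Fmr1 difference was −0.69 (0.0357 from permutation). Prrc2a fell relative to both paralogs, with log2 differences of −0.82 against Prrc2b and −1.30 against Prrc2c. The latter was −0.36 after GC correction and no longer passed (adjusted exact permutation p = 0.0824). After GC correction the Prrc2a/Prrc2b difference, between exons 3.21 points apart, was −0.61 (adjusted exact permutation p = 0.0357). In all, 4 of the 9 combined shifts and 2 of the 4 Aroclor shifts (Ythdf3/Ythdf2 and Fxr1/Fmr1) passed after the correction. With HFD control replicates 1 and 2 left out, the Fxr1/Fmr1 difference was −0.74 and the Ythdc2/Ythdc1 difference 0.49 in the combined exposure, each with an adjusted exact permutation p of 0.0689, where 5 mice against 3 cannot go below an unadjusted 0.0179.

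**Figure D5:**
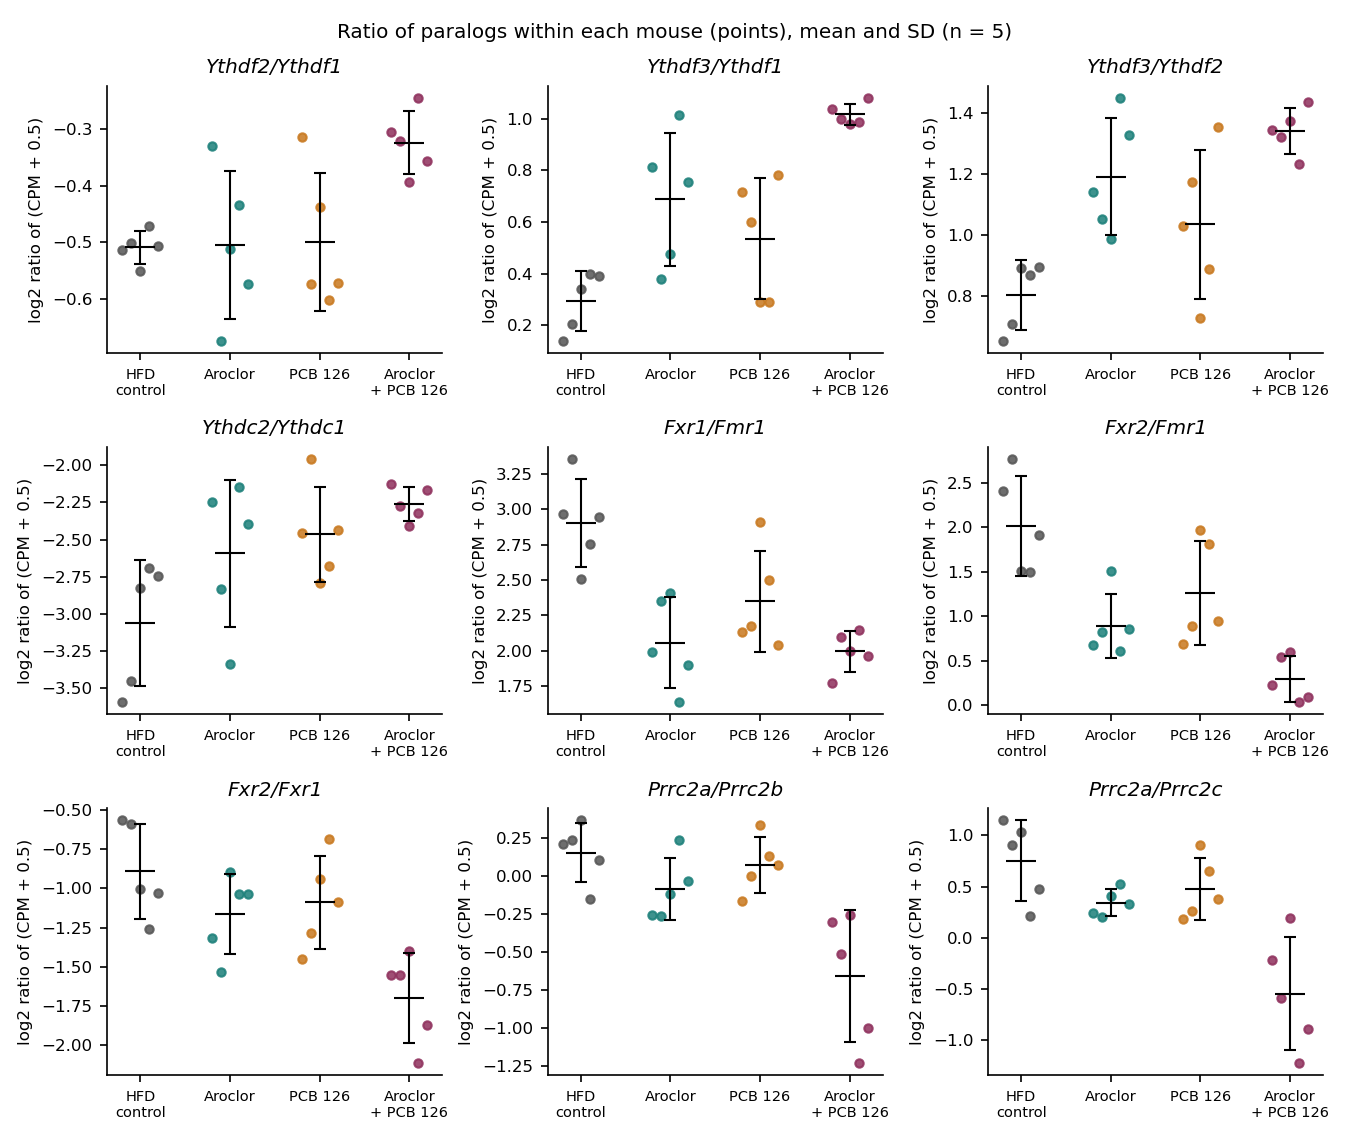
Log2 ratio of (CPM + 0.5) of 9 paralog pairs in each mouse (points) by exposure group, with the mean and SD of 5 mice as black bars. For all 9 pairs the combined mice do not overlap the HFD control mice, and for Fxr1/Fmr1 and Ythdf3/Ythdf2 the Aroclor mice do not either.

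Of 48 tested genes that work with the readers, 13 (27.1%) were called in the combined exposure, against 32.8% of all genes, and none in either single exposure. Of 9 genes of the methyltransferase, 2 rose, the adaptor Wtap (log2FC 0.32 ± 0.08, adjusted p = 0.00695) and the scaffold Virma (0.33 ± 0.11, adjusted p = 0.0273), and 0 fell. The catalytic subunit Mettl3 had a log2FC of −0.30 ± 0.12 (adjusted p = 0.059) and its partner Mettl14 of 0.21 ± 0.11 (adjusted p = 0.178). Of the 2 demethylases 0 were called by edgeR, with log2FC of −0.04 ± 0.10 for Fto (adjusted p = 0.824) and 0.30 ± 0.13 for Alkbh5 (unadjusted p = 0.0313, adjusted p = 0.0821). The median log2FC was 0.05 for the methyltransferase and 0.13 for the demethylases.

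Of 15 genes of the CCR4-NOT deadenylase and of YTHDF-dependent decay, 4 rose and 1 fell. The deadenylases Cnot6 (log2FC 0.49 ± 0.11, adjusted p = 0.00242), Cnot6l (0.59 ± 0.16, adjusted p = 0.00818) and Cnot7 (0.40 ± 0.09, adjusted p = 0.0035) rose with Tob1 (0.46 ± 0.14, adjusted p = 0.0174), which recruits the complex, and Cnot3 fell by 0.50 on the log2 scale (adjusted p = 0.020). Of the 4 tested partners of YTHDC proteins 3 rose, the splicing factors Srsf10 (0.53 ± 0.12) and Srsf3 (0.26 ± 0.09) and the exonuclease Xrn1 (0.59 ± 0.14), and the export factor Nxf1 had a log2FC of −0.26 ± 0.12 (adjusted p = 0.0935). Of 10 partners of FMRP-family proteins 2 rose, the stress granule protein G3bp2 (0.56 ± 0.12, adjusted p = 0.00261) and Tdrd3 (0.22 ± 0.08, adjusted p = 0.0467). Of 8 other readers and PRRC2 paralogs 1 rose, Prrc2c (0.44 ± 0.16, adjusted p = 0.0381). Igf2bp1 and Meioc were too low to test. The 12 called genes that rose had exons of 39.3 to 46.8% GC, and Cnot3 of 55.2%. After GC correction none of these 13 calls passed, and 8 genes that had not been called did. Of these, 7 were lower (Mettl3, Mettl16, Cnot2, Cnot4, Cnot9, Hnrnpa2b1 and Hnrnpc) and Prrc2b was higher. The 8 are 16.7% of the 48, against 9.1% of all genes called after the correction (3.76% higher, 5.33% lower). For Mettl3 the log2FC was then −0.40 ± 0.11 (adjusted p = 0.0338).

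Markers of other liver cells also moved in the combined exposure. Of 5 stellate cell markers 3 were higher, their summed level being 130.8 to 287.3 CPM in HFD control and 299.5 to 348.3 CPM in the combined exposure, without overlap; with Aroclor it was 253.2 to 360.5 CPM. For Kupffer cells 1 of 5 markers was higher (sum 109.4 to 238.7 against 124.8 to 174.0 CPM). The median log2FC of the 5 was −0.12, with lower means for Clec4f, Cd68 and Marco and higher means for Vsig4 and Adgre1. For endothelial cells 1 of 5 was lower (82.85 to 170.1 against 115.1 to 139.2 CPM). For hepatocytes 3 of 5 were lower (75830 to 84890 against 70310 to 97900 CPM). Most of the hepatocyte sum was Alb, which averaged 63440 CPM in HFD control and 71220 CPM with both. Cps1 also had a higher mean with both, and Apoa1, Ttr and Serpina1a had lower means. After GC correction no stellate or Kupffer marker was called, 1 hepatocyte and 1 endothelial marker were lower, and the share of all genes called is that given above (32.8%, and 9.1% after correction). No cholangiocyte or lymphocyte marker was called in either fit, and the lymphocyte markers summed to at most 5.809 CPM in any liver. The part of cell composition in the reader levels was not tested, and in whole liver fewer cells of a type and less RNA per cell cannot be told apart.

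The genes whose levels over the 20 libraries were most like those of each reader were found among 11342 genes with a mean of at least 1 CPM. For Fmr1 they included Phf6 and Fcho2 (Pearson r of log2 CPM 0.979 and 0.975, and 0.940 and 0.918 after GC correction). For Ythdf2 they were Tgs1, Tnpo3 and Bdp1 (0.932, 0.925 and 0.923, and 0.8, 0.5 and 0.851 after GC correction). Those of Ythdc1 were Cul5, Syncrip and Jmy (0.941, 0.928 and 0.927, and 0.738, 0.163 and −0.42 after correction). Rbbp7, Pafah1b1 and Ints6 were those of Fxr1 (0.931, 0.926 and 0.925, and 0.487, 0.855 and 0.648 after correction). Supt5, Gon4l and Dlgap4 were those of Fxr2 (0.951, 0.943 and 0.938, and 0.779, 0.809 and 0.785 after correction). Those of Ythdc2 were Kdm5a, Lats1 and Deptor (0.975, 0.964 and 0.963, and 0.952, 0.898 and 0.914 after correction). Atf2, Celf2 and Mib1 were those of Ythdf3 (0.980, 0.980 and 0.979, and 0.835, 0.918 and 0.907 after correction). Pcnx3, Sbf1 and Dctn1 were those of Prrc2a (0.981, 0.977 and 0.972, and 0.924, 0.893 and 0.867 after correction). The neighbours of Prrc2a held 58.48 to 59.97% GC, and Phf6 and Fcho2 held 40.91 and 39.48%, close to Prrc2a and Fmr1 themselves. Jmy, at 49.24%, was further from Ythdc1, at 39.93%. Before correction Ythdf1, with the flattest profile, had the least similar neighbours, Klhdc2, Larp4 and Cps1 (0.864, 0.850 and 0.847). After correction these were at 0.549, 0.808 and 0.849. The libraries of a group share their exposure, and depth and GC slope vary both within and between groups, so these values only describe likeness.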

How the data were processed

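The authors made stranded libraries from polyadenylated liver RNA, which ran on the sequencer in 2 runs, and aligned reads with STAR 2.6 to GRCm38.p6 and counted reads per gene with HTSeq 0.10.0. The annotation release and strand setting are not given in the sources used here. The deposited values are these raw counts, without normalization, for 20 libraries. Of 21780 identifiers 21754 were in GENCODE M21 (GRCm38), which gave symbols, coordinates, exon length (union of exons) and exonic GC content. The GC content was pooled over all annotated transcripts of a gene, so exons shared by several transcripts count once for each. Promoter sequences are from RefSeq (GRCm38.p6).

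The 15522 genes with 10 or more counts in total were normalized by TMM and fitted with the 4 groups in 1 quasi-likelihood model in edgeR 4.0.16 (R 4.3.3, 16 residual degrees of freedom). P-values are two-sided and were adjusted by Benjamini-Hochberg over all tested genes, with a threshold of 0.05. Paralog ratios were compared by two-sided exact permutation, adjusted over 27 comparisons. For the GC correction, the deviation of log2 CPM from the gene's mean was smoothed over GC (spline, 6 degrees of freedom) in each library and entered as an offset. Alternatives were RLE size factors, no filter, an FPKM filter, only the groups compared, the replicate number as a block, the GC slope as a covariate, DESeq2 1.42.0, pseudocounts of 0.1 and 1, and each mouse left out. Leaving out HFD control replicates 1 and 2 together was chosen after seeing the data. In simulated data of the combined comparison, 200 genes with a mean of at least 1 CPM were changed by a log2FC of 1. Of these, 153 were recovered (76.5%). False calls numbered 8 among the unchanged genes of the 15409 tested. The simulated libraries had no GC trend, so these figures do not cover the GC slopes that differed between the real groups.

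The 9 genes and the gene lists were chosen with earlier results of these data known. All 9 were to be named, with the 3 most similar genes of each and up to 4 genes of each list by smallest p; 1 of the similar genes is not reported here. Cnot3 and the genes of the lists called only after GC correction were named after their values were seen. Each sample was taken as 1 mouse, and counts of the 40 pairs within groups differed beyond sampling noise (chi-square per degree of freedom at least 18.7). The label of PCB 126 replicate 2 holds another number in brackets, and its title was followed. The deviations of same-numbered mice of different groups had r from −0.267 to 0.697 (30 pairs, median 0.041). The median over 120 other pairs was −0.0147. The numbers were therefore not taken to pair mice, although this check cannot show that no mice were paired.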

Additional observations from a re-analysis of the deposited data

Results flagged for a closer look

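In the combined exposure, replicate 3 stood apart from the other 4 mice for 2 of the 9 readers. Its Ythdf2 level was 23.9 CPM, against 28.3 to 29.2 CPM in the others, and its Ythdc2 level was 6.61 CPM, against 8.69 to 9.29 CPM. The gap to the nearest mouse was 0.832 and 0.777 of the range of the group. Of 36 sets of 5 values examined 2 were picked out, and chance picks about 1 in 20. Replicate 3 also had the GC slope nearest to 0 in its group, −0.13. The part of that slope in its values was not tested.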

How the results depend on the processing

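The direction of the 6 combined calls held under RLE size factors, no filter, DESeq2 and each mouse left out, and that of 5 under the FPKM filter, which 8 of the 9 readers passed and Ythdc2 did not. The count of readers called was 6 and ranged from 5 to 8 with a mouse left out; it was 2 after GC correction, 2 after GC correction with the replicate block and 0 with the GC slope as a covariate, a term that moves with exposure. Against PCB 126 alone the 3 calls ranged from 0 to 3 with a mouse left out and were 0 in each of those 3 GC fits; the FPKM filter added Ythdc1 (adjusted p = 0.0358). With Aroclor, DESeq2 called 1 reader. Against Aroclor alone, the FPKM filter called 1, DESeq2 2 and leave-one-out fits 0 to 1 (1 without combined replicate 3). Fitting only the groups compared lost Ythdc1 (adjusted p = 0.0797). The cause was not tested for any of these.

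Paralog shifts in the combined exposure numbered 9 (8 to 9 with a mouse left out), 4 after GC correction, and 0 with HFD control replicates 1 and 2 left out, where exact permutation allows p no lower than 0.0179 and 9 of 27 tests at that value would have an adjusted p of 0.0536, so that this 0 says nothing of stability. With Aroclor they numbered 4 (2 to 4 with a mouse left out), 2 after GC correction and 0 without those 2 mice. With PCB 126 they numbered 0 (0 to 3 with a mouse left out), and 1 with a pseudocount of 1. With the replicate number as a block, edgeR called 6 of 9 readers in the combined exposure and no reader's call changed. For ratios the block left 0 shifts, because an exact permutation over 32 sign patterns cannot go below p = 0.0625.

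Some log2FC turned sign. In the combined exposure, GC correction gave −0.25 for Ythdc1 and −0.29 for Fxr1, as did GC correction with the replicate block (−0.25 and −0.29), and the slope covariate gave −0.24 for Ythdf1, −0.16 for Ythdf2, −0.089 for Ythdc1, −0.10 for Ythdc2 and −0.35 for Fxr1. Without HFD control replicates 1 and 2 Ythdf1 was at −0.14, and it ranged from −0.048 to 0.094 with a mouse left out. Ythdf3 against PCB 126 was −0.013 with the covariate. With Aroclor, Ythdc1 was −0.17 after GC correction (−0.17 with the block), −0.038 with the covariate and −0.044 without the 2 control mice, and Prrc2a was 0.055 after GC correction, 0.049 with the block and 0.077 with the covariate. With PCB 126, Ythdc1 was −0.087 after GC correction (−0.089 with the block), −0.015 with the covariate, −0.078 without the 2 control mice, and −0.00096 to 0.17 with a mouse left out. Of the ratios, GC correction turned Ythdf2/Ythdf1 to −0.071 with Aroclor, −0.039 with PCB 126 and −0.0085 with both, and Fxr2/Fxr1 to 0.088, 0.0056 and 0.098. Without the 2 control mice Fxr2/Fxr1 with PCB 126 was 0.0093. With a mouse left out Ythdf2/Ythdf1 ranged from −0.039 to 0.047 with Aroclor and from −0.037 to 0.035 with PCB 126.

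Over all genes, the combined comparison called 5089 (3894 to 5679 with a mouse left out), against 1412 after GC correction, 1435 with the block added to it, 518 with the covariate and 3194 without the 2 control mice. Aroclor called 0 (0 to 2 with a mouse left out), 26 with the replicate block, 20 with GC correction and the block, 485 with the covariate, 39 without the 2 control mice and 135 by DESeq2. PCB 126 called 18 (4 to 127), 47 with the FPKM filter, 4 with only the groups compared, 101 with the block, 51 after GC correction, 123 with both, 757 with the covariate, 225 without the 2 control mice and 320 by DESeq2. Combined against PCB 126 called 2589 (4 to 3416), 0 after GC correction, 197 with the block added and 0 with the covariate. Combined against Aroclor called 64 (0 to 1036), 107 with RLE, 13 with no filter, 636 with the FPKM filter, 0 with only the groups compared, 475 with the block, 5 after GC correction, 2 with the covariate, 7 without the 2 control mice and 1343 by DESeq2. The interaction called 0 (0 to 0), 38 with the block, 38 with GC correction and the block, 4 without the 2 control mice and 1 by DESeq2. At 70 counts in a library, Ythdc2 is the reader that depth limits most.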
